A study of Mus musculus with 2 samples.

Results

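The *Hox* genes encode homeodomain transcription factors that give cells their position along the head-to-tail axis of the embryo. In the mouse they lie side by side in 4 clusters (*Hoxa*, *Hoxb*, *Hoxc* and *Hoxd*), and the number in a gene's name gives its place in the row, from the anterior genes (1 to 3) through the central genes (4 to 8) to the posterior genes (9 to 13). Their accessibility was described in the liver with and without *Mettl3* in hepatocytes. Members were the accessible regions whose closest transcription start site (TSS) in the deposited table belongs to a *Hox* gene, at any distance, and 13 of 69549 distinct regions met this rule.

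ATAC-seq, in which the Tn5 transposase cuts open chromatin and tags it for sequencing, was done on liver nuclei of C57BL/6 mice aged 8 weeks on normal chow. The FF library came from *Mettl3* flox/flox mice and the HKO library from *Mettl3*-HKO mice (*Mettl3* flox/flox Alb-Cre+/-). The latter lose METTL3, the catalytic subunit of the m6A RNA methyltransferase, where the albumin promoter drives Cre, that is in hepatocytes, and both groups carry the floxed alleles. Each library was a pool of 4 livers and there was 1 library per group, so no test across mice was possible, and the study's question of whether hepatic deletion of *Mettl3* changes open chromatin is answered here for a pair of libraries only.

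*Hox* genes are set up early in development and their state is then kept by chromatin proteins, Polycomb proteins holding them silent and Trithorax proteins holding them active. Genes of one cluster share control elements, which for *Hoxd* lie in the gene deserts on either side. In the adult liver, hepatocytes are an endodermal lineage with little *Hox* expression, while mesenchymal and endothelial cells keep the *Hox* genes of the body level at which they arose. The counts come from whole liver, so fewer cells of a type and less open chromatin per cell cannot be told apart.

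The promoter bases that were open in these livers are shown first for *Hoxa5* and *Hoxd9*, since these are the members whose regions have bases in common with a RefSeq promoter window ahead of the TSS, and since the interval of the ratio takes in equality for the first and not for the second. Both are read 5′ to 3′ on the strand of the gene from RefSeq on GRCm38.p6, and capitals mark CG dinucleotides, the letters in which CpG island promoters are rich. The *Hoxa5* stretch is chr6:52204588-52204717 on the minus strand, ending at the base before the TSS, and holds 20 CG in 130 bases. The *Hoxd9* stretch is chr2:74697634-74697726 on the plus strand, likewise ending at the base before the TSS of the deposited table, and holds 4 CG in 93 bases. The count of CG depends on where the stretch ends, since the whole RefSeq promoter window holds 20 CG for *Hoxd9* and 29 for *Hoxa5*.
Hoxa5: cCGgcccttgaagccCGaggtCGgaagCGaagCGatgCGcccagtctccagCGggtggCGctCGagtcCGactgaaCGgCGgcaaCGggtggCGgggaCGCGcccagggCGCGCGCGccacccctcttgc
Hoxd9: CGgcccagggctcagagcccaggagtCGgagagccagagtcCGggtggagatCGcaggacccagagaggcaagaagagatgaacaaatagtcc

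RefSeq promoter windows of 300 bases (250 before and 50 after a start) were at hand for 22 *Hox* genes in 24 windows, of which 6 genes have a member region. The median window held 14.5 CG, against 7 in all 32851 windows, and 20 of the 24 were above that value. The letters TAAT, the core that homeodomains recognise, occurred on either strand in 79.2% of the *Hox* windows and in 58.0% of all windows. These are descriptions of letters and say nothing about binding.

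*Hox* genes were seldom open. Of the 39 genes, 10 had a region (25.6%), while 62.9% of 21900 protein-coding symbols in RefSeq did. A promoter region, centred within 1 kb of the TSS, was present for 5 *Hox* genes (12.8%) against 46.4% of protein-coding symbols. *Hoxa* had regions at 4 of 11 genes (*Hoxa3*, *Hoxa4*, *Hoxa5* and *Hoxa7*), *Hoxb* at 1 of 10 (*Hoxb2*), *Hoxc* at 2 of 9 (*Hoxc8* and *Hoxc10*) and *Hoxd* at 3 of 9 (*Hoxd8*, *Hoxd9* and *Hoxd12*). By place in the row, 2 of 8 anterior, 5 of 15 central and 3 of 16 posterior genes had one.

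Among the 29 *Hox* genes without a region were *Hoxa2*, *Hoxa6*, *Hoxa9*, *Hoxa10*, *Hoxa11* and *Hoxa13*, then *Hoxb1*, *Hoxb3*, *Hoxb4*, *Hoxb5*, *Hoxb6*, *Hoxb7*, *Hoxb8*, *Hoxb9* and *Hoxb13*, then *Hoxc4*, *Hoxc5*, *Hoxc6*, *Hoxc9*, *Hoxc11*, *Hoxc12* and *Hoxc13*, and last *Hoxd1*, *Hoxd3*, *Hoxd4*, *Hoxd10*, *Hoxd11* and *Hoxd13*. The table lists regions with a called peak in at least 1 library, so for these genes no peak was called, which is not a count of 0. The rule goes by the closest TSS, and a region may lie over the body of another gene: *Hoxb3*, *Hoxc6*, *Hoxd3* and *Hoxd4*, for example, have no region by the rule but at least 1 over their RefSeq body.

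**Figure D1:**
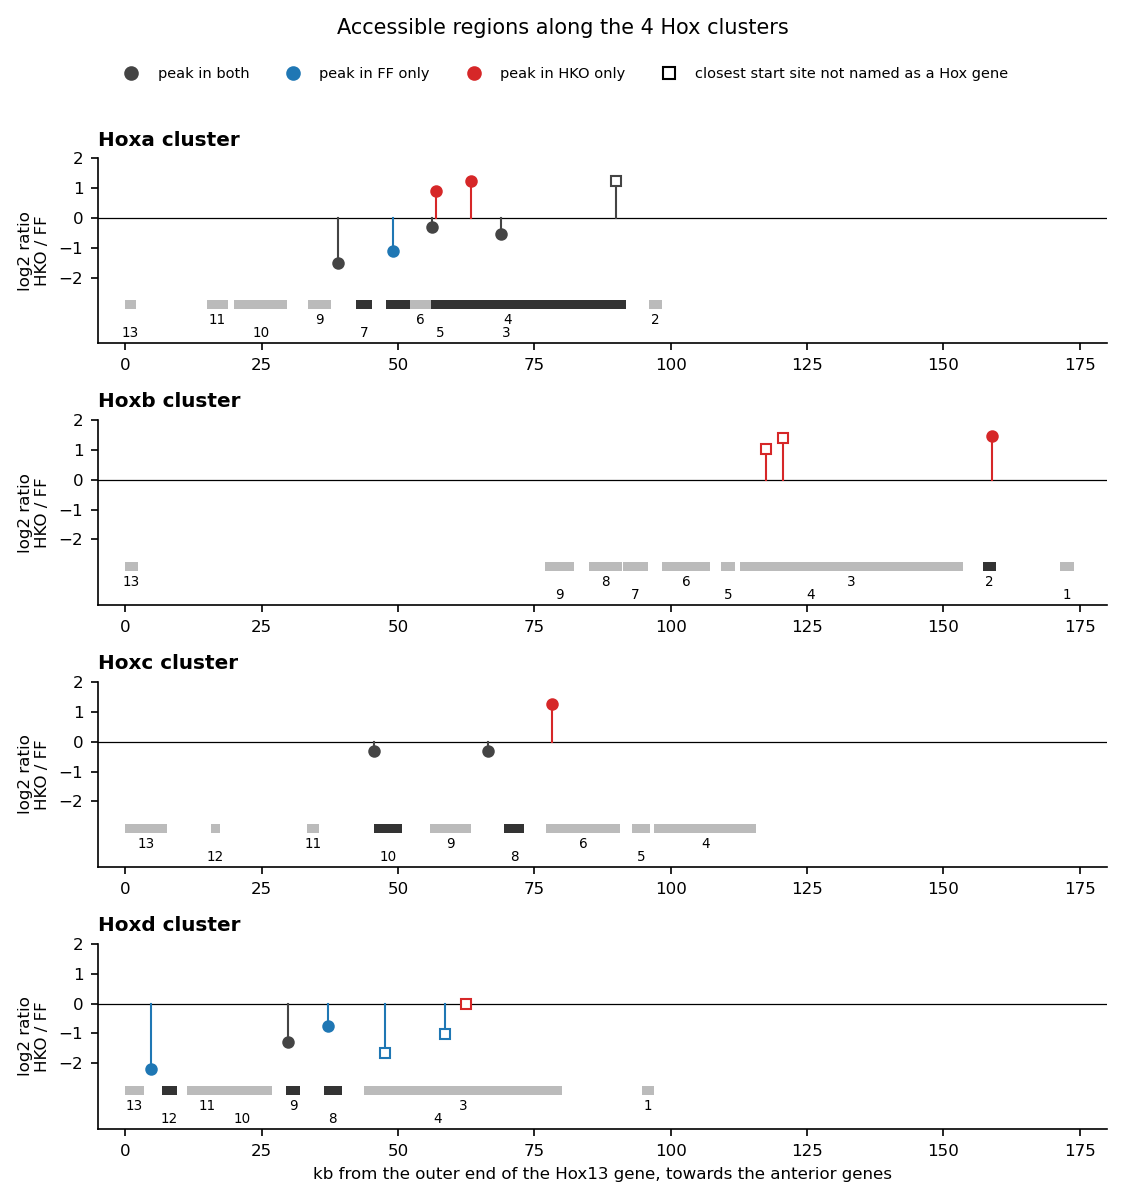
Log2 ratio of HKO over FF (vertical axis) for regions in the 4 clusters, by distance in kb from the outer end of the *Hox13* gene (horizontal axis), with gene bodies as bars (dark where the gene has a member region). Filled circles are the 13 members and open squares the 6 further regions in the clusters, coloured by the library in which a peak was called. The 6 *Hoxd* regions lie below 0, the last of them just so, and the 3 *Hoxb* regions above it.

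Most of the open *Hox* regions were weak. The median member had 46 counts in FF and 39 in HKO, against 85 and 81 over all regions. The enrichment of the authors (reads per base in the region over reads per base in the genome) had a median of 7.25 in FF and 5.27 in HKO, against 11.4 and 9.87 over all regions, and 10 of 13 members in FF and 12 of 13 in HKO were under that median. Ordered by the mean RPM (reads scaled to a common library size) of both libraries and cut into 4 equal parts, the weakest part of all regions held 6 members, the next 4, the next 2 and the strongest 1, the *Hoxc10* promoter.

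Log2 ratios of HKO over FF were taken from the counts, with 1 read added, on the library totals of the authors. Over all regions the median log2 ratio was −0.38, and it fell with signal, from 0.37 in the weakest of the 4 parts to −0.64 in the strongest, so each member is also given as a percentile among the 1000 regions nearest to it in mean RPM. Each ratio has a 95% Clopper-Pearson interval, which covers counting error only, as duplicate reads were kept and mice were pooled. A region counts as changed in the lists that follow when it was at least 2-fold higher or lower.

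**Figure D2:**
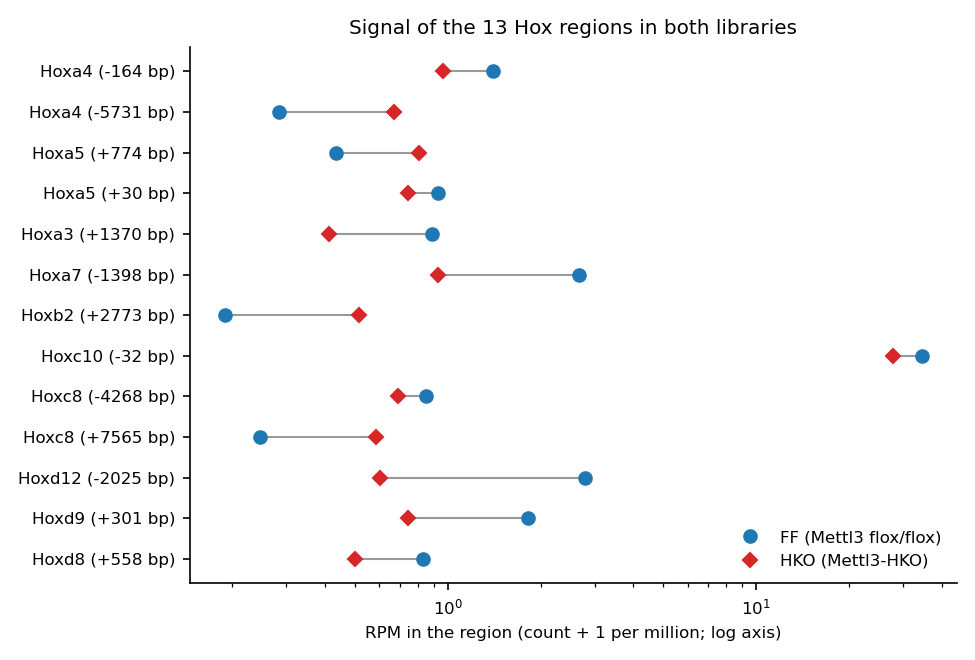
RPM of each member in the FF library (blue circles) and the HKO library (red diamonds), on a log axis, with 1 read added to each count. The *Hoxc10* promoter region, with 1821 counts in FF and 1611 in HKO, stands far above the other members, whose highest counts are 146 and 55.

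Over the 13 members, the median log2 ratio was −0.32 on the library totals and 0.05 after the median of all regions was set to 0. The range on the library totals was from −2.21 to 1.45. At least 2-fold higher in HKO were 3 members, in *Hoxa4*, *Hoxb2* and *Hoxc8*, where 13.2% of all regions were. These had 9 to 14 counts in FF, and with 10 reads added to each count none was 2-fold higher (log2 ratios 0.83 to 0.90). At least 2-fold lower were 4 members, in *Hoxa3*, *Hoxa7*, *Hoxd9* and *Hoxd12*, where 18.3% of all regions were. After the same centring, 4 members were 2-fold higher (all regions 20%) and 2 were 2-fold lower (all regions 7.89%). On the library totals the interval lay above equality for 4 members (all regions 21.1%) and below it for 7 (all regions 48.7%). Of the 7, the *Hoxa4* promoter, *Hoxc10* and *Hoxd8* had upper ends of −0.02, −0.22 and −0.03. Centring on the median of all regions (−0.38) brings equality inside these intervals. Against their own 1000 regions of the same signal, 5 members were above the median and 8 below, with a median difference of −0.31. The members thus did not move as 1 group, and they are described by cluster.

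**Figure D3:**
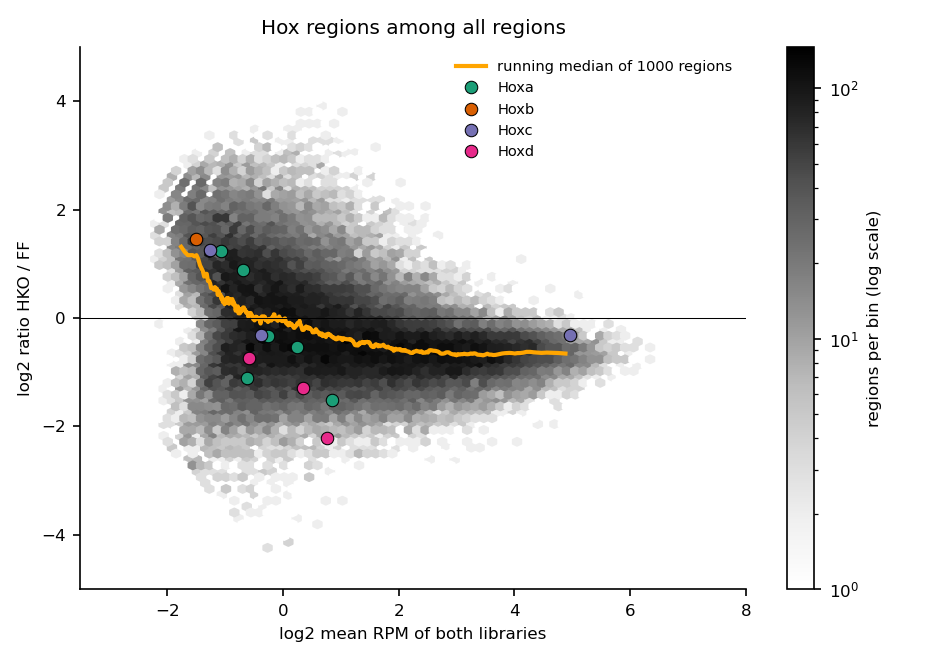
Log2 ratio of HKO over FF against log2 mean RPM for all 69549 regions (grey, darker where regions are more numerous), with the running median in orange and the 13 members coloured by cluster. The 3 *Hoxd* members lie below the running median at their signal and *Hoxc10* lies at the right end, above it.

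The posterior *Hoxd* genes pattern the digits, the genitals and the lower trunk. The *Hoxd* genes with a region, *Hoxd9*, *Hoxd12* and the central *Hoxd8*, were less open in HKO at each of their 3 regions on the library totals. The largest difference of any member was at a region between *Hoxd13* and *Hoxd12*, 2025 bp before the TSS of *Hoxd12* (chr2:74672678-74673299). It had 146 counts in FF and 34 in HKO, a log2 ratio of −2.21 (95% interval −2.82 to −1.69), and a peak was called only in FF. Of its 1000 regions of the same signal, 1.1% had a lower ratio.

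The region of *Hoxd9* covers its TSS and 5′ UTR (chr2:74697634-74698423, centred 301 bp after the TSS) and starts with the bases printed for *Hoxd9*. It had 95 counts in FF and 42 in HKO, a log2 ratio of −1.29 (−1.87 to −0.77), at percentile 8.1 of its signal, with a peak in both libraries. *Hoxd8*, the most anterior *Hoxd* gene with a region, was open in its 5′ UTR, centred 558 bp after the TSS (chr2:74705277-74705651). It had 43 counts in FF and 28 in HKO, a log2 ratio of −0.74 (−1.50 to −0.03), at percentile 22.2, with a peak only in FF. Centred on all regions the *Hoxd8* ratio was −0.36, and on the strongest 10% of promoter regions −0.09. Its interval, shifted likewise, takes in equality. Over the 1787 bp of the 3 regions there were 284 counts in FF and 104 in HKO, or 159 and 58.2 per kb. Of the 3, *Hoxd12* and *Hoxd8* were in the table through a peak in FF alone, and all regions with that call had a median log2 ratio of −1.03.

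A further 3 regions lie within the *Hoxd* cluster but are closest to the TSS of another gene, and on the library totals none of them was higher in HKO, though the last given here was after centring (0.35). At the start of *Hoxd3os1*, a non-coding RNA gene opposite *Hoxd3*, the region chr2:74715761-74716117 had 79 counts in FF and 27 in HKO (log2 ratio −1.65, interval −2.37 to −1.04). The other two are closest to *Gm28230*, over *Hoxd3* introns, with 34 counts in FF and 18 in HKO (−1.02, −1.96 to −0.19) and with 24 and 26 (−0.02, −0.88 to 0.84). A peak was called only in FF for the *Hoxd3os1* region and the first *Gm28230* region, and only in HKO for the second. All 6 regions in the cluster were below the median of their signal, but 4 of them had a peak in FF alone, and that call goes with lower ratios in all regions. Over their 2605 bp there were 421 counts in FF and 175 in HKO, or 162 and 67.2 per kb.

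**Figure D4:**
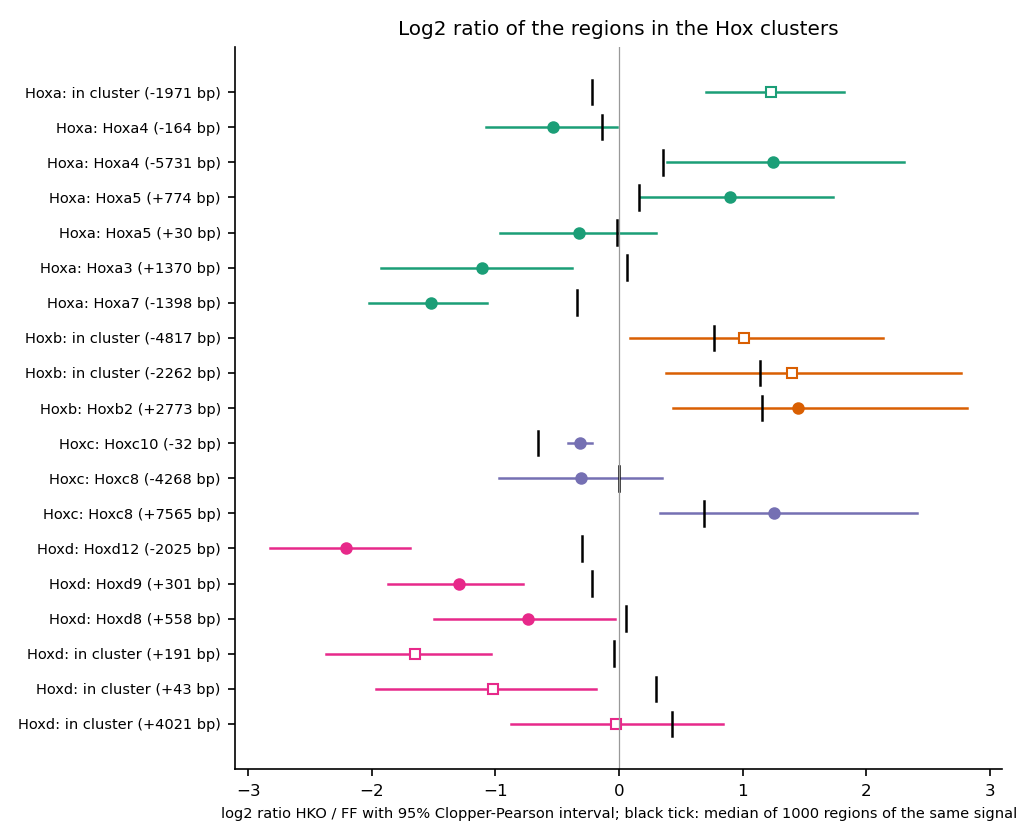
Log2 ratio of HKO over FF (horizontal axis) with its 95% Clopper-Pearson interval for the 13 members (filled circles) and the 6 further regions in the clusters (open squares), labelled by distance to the closest TSS. Black ticks are the median of the 1000 regions of the same signal, and the 6 *Hoxd* regions all lie to the left of their ticks.

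The regions next to the *Hoxd* cluster on both sides were lower as well. Before the cluster lie *Evx2*, a homeobox gene next to *Hoxd13*, with 28 counts in FF and 10 in HKO (log2 ratio −1.53, −2.83 to −0.54), and the promoter of *Lnpk*, which shapes the endoplasmic reticulum, with 1140 and 505 (−1.31, −1.46 to −1.16). After it lies the promoter of *Mtx2*, a mitochondrial import gene, with 1100 and 428 (−1.50, −1.66 to −1.34), at percentile 2.8 of its signal. Within 500 kb on either side of the cluster, 8 of 10 regions were below the median of their signal, against 16 of 30 around *Hoxa*, 15 of 32 around *Hoxb* and 23 of 44 around *Hoxc*.

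The *Hoxd* cluster sits in an unbroken row of 23 regions with a log2 ratio below 0, from chr2:74391104 to chr2:75633181, or 1242 kb. Their median was −1.29, and 21 of the 23 were below the median of their signal. Of all regions, 64.8% were below 0, and along the genome such regions fell into 12406 rows, of which 45 had 23 regions or more, and 2 of those, this one included, had a median as low. The row holds on the library totals: its highest region, the second *Gm28230* region in the cluster, stood at −0.02 and was above 0 after centring (0.35), which breaks the row. It was looked for after its values were seen and is a description.

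**Figure D5:**
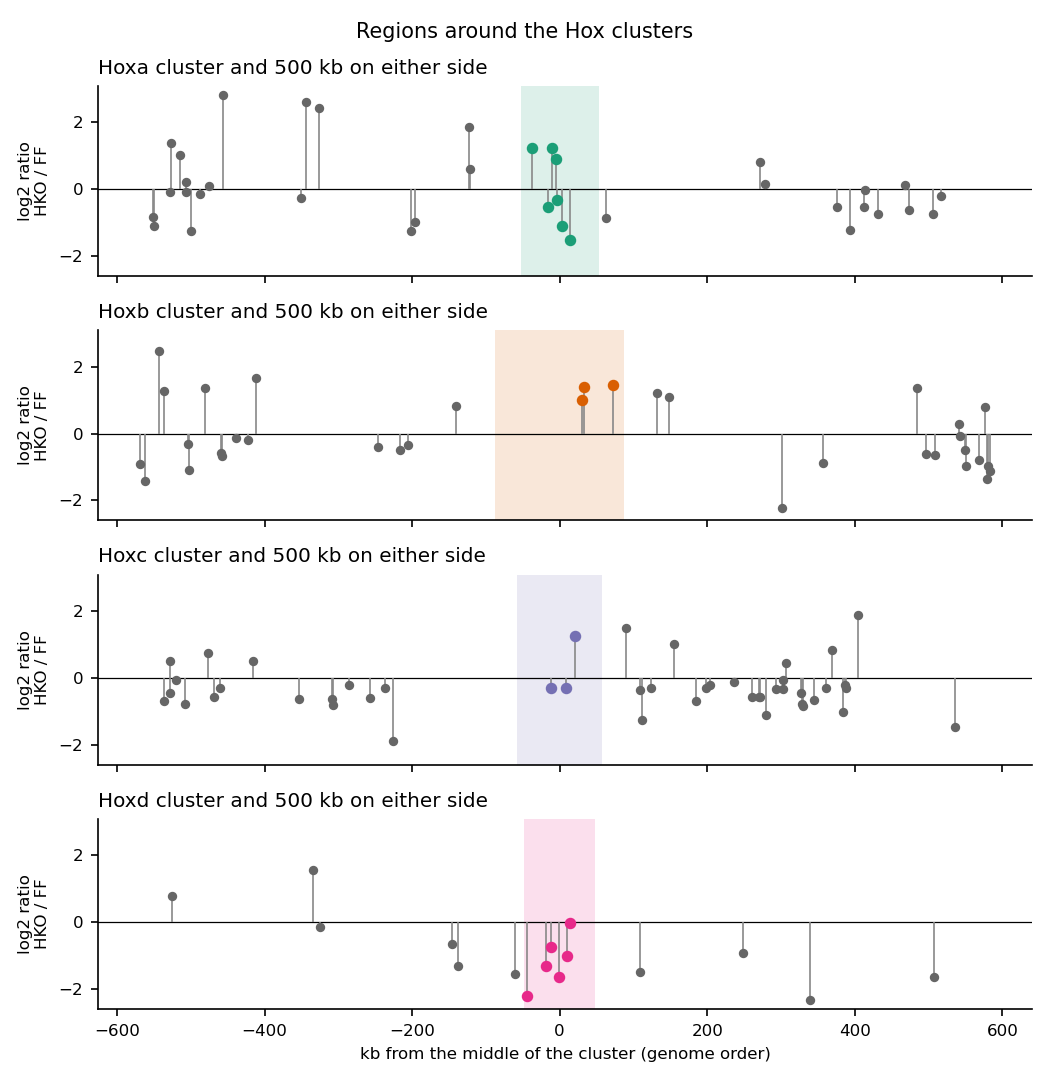
Log2 ratio of HKO over FF for regions in and within 500 kb of each cluster, by distance in kb from its middle, with the cluster shaded and its own regions coloured. Below 0 lie 8 of the 10 regions flanking *Hoxd*, 18 of 30 around *Hoxa*, 22 of 32 around *Hoxb* and 36 of 44 around *Hoxc*, beside 64.8% of all regions.

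In the *Hoxa* cluster, which patterns limbs, gut and lung, the regions went both ways, with the most posterior ones lower in HKO and 3 of the 5 from *Hoxa5* to the last intron of *Hoxa3* higher. The region 1398 bp before the TSS of *Hoxa7* (chr6:52221610-52221973), the most posterior *Hoxa* region, had 140 counts in FF and 53 in HKO, a log2 ratio of −1.52 (−2.02 to −1.07) at percentile 5.5, with a peak in both. In intron 1 of *Hoxa3* (chr6:52211578-52211912) there were 46 counts in FF and 23 in HKO (−1.11, −1.93 to −0.38), at percentile 12.1, with a peak only in FF. These were the lower pair of the cluster, and both lie on the posterior side of *Hoxa5*.

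*Hoxa5*, which is needed for lung development, had a region at its TSS and another in exon 1. The region over the TSS (chr6:52204397-52204717), which holds the CG-rich bases printed for *Hoxa5*, had 48 counts in FF and 42 in HKO, a log2 ratio of −0.32 (−0.96 to 0.30), so that no difference was detectable at this depth. The region in exon 1 (chr6:52203620-52204006, centred 774 bp after the TSS) had 22 and 46 counts (0.90, 0.17 to 1.73), with a peak only in HKO. The intervals of the neighbouring regions overlap, and after centring on all regions the one over the TSS was above 0 as well (0.05).

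*Hoxa4* likewise had a region at its promoter and a distant one. The promoter region (chr6:52191668-52192167, centred 164 bp before the TSS) had 73 counts in FF and 55 in HKO (−0.54, −1.08 to −0.02), at percentile 31.5. The region 5731 bp before the TSS (chr6:52197381-52197589) had 14 and 38 counts (1.24, 0.39 to 2.30), at percentile 77, with a peak only in HKO. The 6 *Hoxa* members summed to 343 counts in FF and 257 in HKO (−0.55, −0.79 to −0.31), an interval that takes in the median of all regions (−0.38).

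A further region of the cluster lies in the last intron of *Hoxa3*, on its anterior side, and is closest to the TSS of another gene. This region, chr6:52170678-52171143, had 39 counts in FF and 102 in HKO (1.23, 0.71 to 1.82), at percentile 91.6, with a peak in both. With it included, the 7 regions summed to 382 counts in FF and 359 in HKO (−0.23, −0.44 to −0.01), nearer to 0 than the sum of the members.

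*Hoxc10*, a posterior gene of the hindlimb and lumbar trunk, had the region with the most reads of all members at its promoter (chr15:102966655-102966873, centred 32 bp before the TSS). It had 1821 counts in FF and 1611 in HKO, a log2 ratio of −0.31 (−0.41 to −0.22) that turned to 0.07 after centring on all regions, and it was above the median of its signal by 0.34, at percentile 88.4. Its enrichment was 430.1 in FF and 346 in HKO, and only 29 and 28 of the 69549 regions had a higher one. The region is 219 bp long, while the 1000 regions of the same signal had a median of 1236 bp, and 1 of these was as short or shorter. The authors filtered reads on mapping quality and kept duplicates, and how far either bears on these counts was not tested.

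*Hoxc8*, a central gene of the thoracic skeleton, had a pair of distant regions. The first, 4268 bp before its TSS (chr15:102987482-102987760), had 44 counts in FF and 39 in HKO (−0.31, −0.97 to 0.35), a difference not detectable at this depth. The second, centred 7565 bp after the TSS (chr15:102999279-102999630), lies inside the RefSeq body of *Hoxc6* and had 12 and 33 counts (1.25, 0.33 to 2.41), at percentile 71.4, with a peak only in HKO. Without *Hoxc10*, the summed *Hoxc* counts were 56 in FF and 72 in HKO (0.23, −0.30 to 0.76), so the cluster's lower sum, 1877 and 1683 counts, was that of 1 region.

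*Hoxb2*, an anterior gene of the hindbrain, had the 1 member of the *Hoxb* cluster, in its last exon 2773 bp after the TSS (chr11:96353159-96353438). It had 9 counts in FF and 29 in HKO, a log2 ratio of 1.45 (0.43 to 2.82), the highest of all members, with a peak only in HKO. Regions this weak leaned the same way, with a median of 1.16, and *Hoxb2* stood at percentile 63.1 of them, 0.29 above that median. A further pair of regions over *Hoxb3* had 13 and 30 counts (1.01, 0.09 to 2.13) and 9 and 28 counts (1.40, 0.38 to 2.77). All 3 *Hoxb* regions were in the table through a peak in HKO alone, and all regions with that call had a median of 1.06. The pair's percentiles were 57.8 and 60.9, near the middle of their signal.

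The last of these regions is closest to the start of *Mir10a*, 2154 bases from its hairpin. *Mir10b*, its paralogue in the *Hoxd* cluster, lies 504 bases from the *Gm28230* region with 34 counts in FF and 18 in HKO. The mature sequences are shown because these miRNA genes are part of the clusters and share a seed (bases 2 to 8, in capitals). They are from RefSeq on GRCm38.p6, both on the plus strand, at chr11:96317186-96317208 and chr2:74726074-74726096. No miRNA was measured here.
mmu-miR-10a-5p: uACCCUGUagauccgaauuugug
mmu-miR-10b-5p: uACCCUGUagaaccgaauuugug

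By distance, the 6 promoter members had a median log2 ratio of −0.43, with 1 above 0, where all 14387 promoter regions had a median of −0.56. The 7 members beyond 1 kb had a median of −0.31, against −0.27 for all such regions. By place in the row, the 3 posterior members (*Hoxc10*, *Hoxd9* and *Hoxd12*) were all below 0, 5 of the 8 central members were, and so was 1 of the 2 anterior members, beside 64.8% of all regions. After centring on all regions, *Hoxc10* and 2 of the central members (*Hoxa5* over the TSS and *Hoxc8* before it) turned above 0. By peak call, 6 members had a peak in both libraries (all regions 61.7%), with ratios from −1.52 to −0.31. A peak only in FF was called for 3 (all regions 16.8%), from −2.21 to −0.74, and only in HKO for 4 (all regions 21.5%), from 0.90 to 1.45. The medians of the members by call, −0.43, −1.11 and 1.25, were close to those of all regions with the same peak call, −0.47, −1.03 and 1.06. The sum over all members was 2513 counts in FF and 2073 in HKO (−0.41, −0.50 to −0.33), of which *Hoxc10* gave 1821 and 1611. Without *Hoxc10* it was 692 and 462 (−0.72, −0.89 to −0.55). Over all regions the median was −0.38, and 31.7% of the FF reads and 22.3% of the HKO reads lay in regions.

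The genes that act with or on the *Hox* clusters were described by the strongest promoter region of each. Over all symbols, 2.60% of such regions were at least 2-fold higher in HKO and 15.3% at least 2-fold lower, with a median of −0.58. Of the TALE homeodomain proteins, which bind DNA together with HOX proteins, 6 of 9 had a promoter region, with a median log2 ratio of −0.73, and 1 was 2-fold lower. This was *Meis1*, with 1332 counts in FF and 631 in HKO (−1.21, −1.35 to −1.08). The highest was *Pbx4*, with 44 and 48 counts (−0.01, −0.63 to 0.61).

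Of the Polycomb genes, 13 of 14 had a promoter region, with a median of −0.54 and a range from −1.05 to −0.28. The lowest was *Cbx2*, a chromobox subunit that binds methylated histone H3, with 332 counts in FF and 176 in HKO (−1.05, −1.32 to −0.78), and it alone was 2-fold lower. The highest was *Ezh1*, a histone methyltransferase, with 127 and 115 (−0.28, −0.66 to 0.10). Of the Trithorax genes and H3K27 demethylases, 4 of 8 had one, all lower by less than 2-fold on the library totals, from *Kdm6a* at −0.79 to *Kmt2a* at −0.37. Of the regulators upstream of *Hox* genes in the embryo, the *Cdx* genes had no promoter region, and the retinoic acid receptors had 3, from *Rarb* with 1239 and 603 counts (−1.17, −1.32 to −1.03) to *Rara* with 378 and 289 (−0.52, −0.75 to −0.30). At least 2-fold lower were 1 of 6 TALE, 1 of 13 Polycomb, 0 of 4 Trithorax and demethylase genes and 1 of 3 upstream regulators. Over all symbols the share was 15.3%. After centring on all regions, 0 genes of these lists were 2-fold lower.

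Of 14 genes that neighbour the clusters, 6 had a promoter region, with a median of −0.68. The 2-fold lower ones were *Mtx2* and *Lnpk*, both next to *Hoxd*, and the highest was *Hnrnpa1* beyond *Hoxc*, with 1624 and 1194 counts (−0.58, −0.69 to −0.47). After centring on all regions only 1, *Mtx2*, was still 2-fold lower.

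Markers of liver cell types were read in the same libraries, where strongest promoter regions at least 2-fold higher made up 2.60% of all and those at least 2-fold lower 15.3%. All 8 hepatocyte markers had a promoter region, as the tissue label has it, with 3826 counts in FF and 2879 in HKO in sum and a median log2 ratio of −0.68, 4 of them above and 4 below the median of their signal, and *Ttr* alone at least 2-fold lower (−1.08). Of the endothelial markers, 7 of 8 had one, with 153 and 400 counts in sum and a median of 1.60, and 5 were at least 2-fold higher (*Cdh5*, *Kdr*, *Lyve1*, *Stab2* and *Tek*). These 5 had 11 to 25 counts in FF and stood at percentiles 83.8 to 93.1 of their signal. Of the macrophage markers 2 of 8 had a promoter region (53 and 112 counts), with *C1qa* at least 2-fold higher (8 and 40 counts, 2.05). Of the cholangiocyte markers 5 of 8 had one (734 and 611 counts), with *Spp1* at least 2-fold higher (13 and 34 counts, 1.19). Of the stellate markers 2 of 8 had one (727 and 175 counts), of which *Reln* was at least 2-fold lower (690 and 132 counts, −2.51) and *Col1a1* was not (37 and 43 counts, 0.08). Of the lymphocyte markers none of 8 had one. The part of cell types other than hepatocytes in the *Hox* ratios was not tested.

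The library totals were 52826202 reads for FF and 58038305 for HKO, of which 31.7% and 22.3% lay in regions. The 3 regions of *Mettl3* had log2 ratios from −0.66 to −0.24, and accessibility gives no check of the deletion.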

How the data were processed

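Liver ATAC-seq reads were trimmed with skewer and aligned with BWA to GRCm38 by the authors, who filtered them on mapping quality (MAPQ 13), pairing and mitochondrial origin, called peaks with MACS2 in each library and kept all duplicates. The merging of peaks and any Tn5 shift are not given in the sources used here. Deposited by the authors were raw counts per region, RPM values (count plus 1, scaled to a library total) and a fold enrichment, which is a ratio of read densities. Their log2 column, the authors' own comparison, was not used. Totals were recovered from count and RPM, and repeated rows of a region were used once. Starts count from 1.

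Ratios, intervals and references of the same signal were computed from the counts as the report states, and tested on simulated data: with 200 of 69549 regions changed 2-fold, intervals held the true ratio in 96.02% of regions. By the naming rule, *Hox* genes are named, and in full are all promoter regions and, per cluster, the strongest region and the highest and lowest ratio with at least 20 counts in both libraries together. In the lists of *Hox* partners, regulators and neighbours the highest, the lowest and those past 2-fold are named, and in the marker lists those past 2-fold. Other regions between the outermost start sites of a cluster were added. The values of 1 gene are not reported here. Gene bodies, promoters and miRNAs are from RefSeq. The members and lists were chosen with earlier results of these data known. Alternatives covered scaling, added reads, signal, peak calls, distance, membership and reference size. Work was done in Python 3.11.15 (scipy 1.17.1, pandas 2.3.3, matplotlib 3.10.9, numpy 2.4.6).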

Additional observations from a re-analysis of the deposited data

How the results depend on the processing

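Centring on the median of all regions added 0.38 to each log2 ratio and left 2 *Hox* regions at least 2-fold lower in HKO, as did scaling to the reads in regions. The median of the members had the other sign under both, at 0.05 and 0.19, and reads in regions put that of the promoter members at 0.081. Centring on the strongest 10% of promoter regions added 0.65, left 1 region 2-fold lower, and put the median of the members at 0.32 and that of their promoter regions at 0.22. With 10 reads added, 0 regions were 2-fold higher. In the upper 50% of mean signal 3 members were left, with 0 higher, 2 lower and a median of −1.52. With a peak in both libraries 0 were higher and 2 lower, at 6 genes. The shares of all regions under both filters were not taken, so these counts have no background beside them. Within 1 kb of the TSS 5 genes had a region. By position in a cluster, whatever the closest gene, 6 regions were 2-fold higher and 6 lower, of 19 between the outermost start sites and, chosen after seeing the data, of 20 between the outer gene ends. Of all regions, 13.2% were 2-fold higher and 18.3% lower. Of 65 values of named regions under alternatives, 56 moved by less than their interval, 9 moved by more and 10 had another sign, in 4 regions (the promoters of *Hoxa4* and *Hoxc10*, the *Hoxa5* region over the TSS, and the *Hoxc8* region 4268 bp before the TSS). Adding names through the reference table gave no value, since it pairs 0 of its genes with an Ensembl identifier. No paired analysis was possible because each group has 1 library, and leaving out a replicate was likewise impossible. The number of counts limits the precision: for a member with the median of 46 counts in FF, intervals spanned more than 2-fold.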

Other observations

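The enrichment of the *Hoxc10* promoter region was reached or passed in both libraries by 23 regions. Of these, 8 lay within 1 kb of a TSS, their median length was 563 bp, and their median log2 ratio of HKO over FF was −0.37. Among its 1000 regions of the same mean RPM, 81.1% lay within 1 kb of a TSS.

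Other values near the clusters were as large as those inside them. In the row of lower regions around *Hoxd*, a region 290.1 kb after the cluster had 45 counts in FF and 9 in HKO (log2 ratio −2.34, −3.68 to −1.41). After *Hoxb*, a region closest to *Skap1*, an adaptor of T cells, had 37 counts in FF and 8 in HKO (−2.21, −3.66 to −1.22), against the higher ratios within the cluster. Before *Hoxc*, a region closest to *Calcoco1* had 90 counts in FF and 26 in HKO (−1.89, −2.62 to −1.28). Before *Hoxa*, a region 69.4 kb away had 9 and 39 counts (1.86, 0.91 to 3.21).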
